A study of Mus musculus with 16 samples.

Results

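The 10 genes described here encode transcription factors that mark or specify the epicardium, the cell sheet that covers the heart, and the cells that arise from it: Wt1, Tbx18, Tcf21, Scx, Tbx20, Gata4, Gata5, Gata6, Bnc1 and Bnc2. They were chosen by name, and all 10 were present among the 15805 genes of the count table and among the 15675 genes tested. RNA was sequenced from 16 primary epicardial explants of C57BL6 mice, grown on a collagen gel, 8 of them exposed to blebbistatin and 8 left as controls. This compound inhibits the ATPase activity of myosin II, the motor protein of actin filaments. Its dose is given as 20 in the labels, with a unit that differs between fields, and the sources used here do not give the age of the animals, the duration of treatment or any solvent in the controls. Nothing in the labels says that the 8 explants of a group came from separate animals, so p-values measure the spread between these explants.

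As background, the epicardium grows from a mesothelial cluster, the proepicardium, that spreads over the heart. Some of its cells leave the sheet in an epithelial-mesenchymal transition and become fibroblasts and mural cells of vessels. Wt1 (a zinc finger protein) and Tbx18 (a T-box repressor) mark the sheet, Tcf21 (a basic helix-loop-helix protein) is needed for cardiac fibroblasts, and Scx, of the same class, is best known from tendon. Tbx20 and the zinc finger proteins Gata4, Gata5 and Gata6 act in heart muscle and endocardium as well, and Gata4 is needed to form the proepicardium. Bnc1 and Bnc2 are paralogous zinc finger proteins, the basonuclins, of which Bnc1 is known from mesothelium and the basal layer of skin and Bnc2 from mesenchymal cells.

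Among the 10 genes, the fold changes of Bnc2 (log2 0.96) and Tbx18 (−0.68) lay farthest from 0, though neither passed the test across all genes, and that of Bnc1, the paralog of Bnc2, was −0.15. For Tbx18 and Bnc1 the promoter window is therefore shown, as the 250 bases before the RefSeq start on build GRCm38.p6, read 5′ to 3′ on the gene's strand, with each CpG in capitals. The Bnc1 window is chr7:81992300-81992549 and that of Tbx18 chr9:87731261-87731510, both on the minus strand. The RefSeq start of Bnc2 opens an inner exon of GENCODE transcripts, 63578 bases from the nearest GENCODE transcript start, so that its window is not used as a promoter here.
Bnc1: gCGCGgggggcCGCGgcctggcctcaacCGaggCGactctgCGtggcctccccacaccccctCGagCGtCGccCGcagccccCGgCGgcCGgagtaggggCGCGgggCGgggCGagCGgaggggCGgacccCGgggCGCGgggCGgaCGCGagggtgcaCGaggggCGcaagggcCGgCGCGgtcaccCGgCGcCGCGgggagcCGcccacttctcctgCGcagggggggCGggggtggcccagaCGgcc
Tbx18: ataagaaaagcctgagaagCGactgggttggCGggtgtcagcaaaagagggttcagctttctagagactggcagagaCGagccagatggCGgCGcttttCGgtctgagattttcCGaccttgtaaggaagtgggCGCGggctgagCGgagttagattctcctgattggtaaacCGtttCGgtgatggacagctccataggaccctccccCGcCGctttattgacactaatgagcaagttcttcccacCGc
The window of Bnc1 is 83.6% G or C and holds 39 CpG, a number reached by 1.56% of the 32851 promoter windows in the table. The Tbx18 window is 54.0% G or C with 15 CpG, and the medians over all windows are 52.4% and 6. Counts per gene do not show which start was used.

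RefSeq windows were found for 6 of the 10 genes. Without that of Bnc2, 5 were left, those of Bnc1, Tbx18, Gata5, Tbx20 and Tcf21. They were searched on both strands for motifs of these and related factors: GATAA for the GATA family, GTGTGA for T-box proteins, CANNTG for the E-box that basic helix-loop-helix proteins bind, GCGGGGGC for WT1, GGAATG for TEAD, and the SRF CArG box by name. None of these motifs holds another within it. An E-box was found once each in the windows of Gata5 and Tbx18, against 66.2% of all windows. GATAA was found in that of Tcf21 (22.6% of all) and GCGGGGGC in that of Gata5 (4.25% of all). The T-box, TEAD and CArG motifs, held by 12.3%, 12.6% and 1.47% of all windows, matched in 0 of the 5. Such matches describe letters and not binding.

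In the controls, Bnc1 stood highest per exonic length, and Bnc2 lowest. Levels between genes are compared as TMM-scaled RPKM, that is, reads scaled by exon length and library size, with exon lengths from GENCODE M21. The length covers all annotated exons of a gene, and the transcripts in use were not determined. Bnc1 had 74.7 ± 16.7 RPKM (SD, n = 8), above Tcf21 at 26.4 ± 5.99 in 8 of 8 controls with no overlap of their ranges. Gata4 (25.1 ± 7.02), Tbx20 (20.2 ± 8.90) and Gata6 (19.5 ± 3.66) followed, and from Tcf21 to Gata6 each neighbouring pair overlapped, the higher gene being ahead in 3 to 5 of 8 controls. Wt1 (12.2 ± 2.82) was below Gata6 in 8 of 8 controls and Tbx18 (10.7 ± 2.81) below Wt1 in 6 of 8.

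Gata5 (1.75 ± 1.16), Scx (1.58 ± 0.72) and Bnc2 (0.96 ± 0.32) formed a low group whose ranges overlapped from each gene to the next, while that of Tbx18 lay wholly above that of Gata5. Bnc1 thus ranked at the 97.5th percentile of tested genes by RPKM in the controls and Bnc2 at the 22.5th. These ranks are among the genes tested and not among all annotated genes. Of the 15805 genes in the table, 15468 to 15795 were detected per library. The order of the 10 genes was the same with blebbistatin, save that Bnc2 (1.87 ± 0.52) then stood above Scx (1.09 ± 0.64). The order depends on the length: by mean control CPM, Bnc2 (7.88) stood above Gata5 (5.74) and Scx (3.17).

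**Figure D1:**
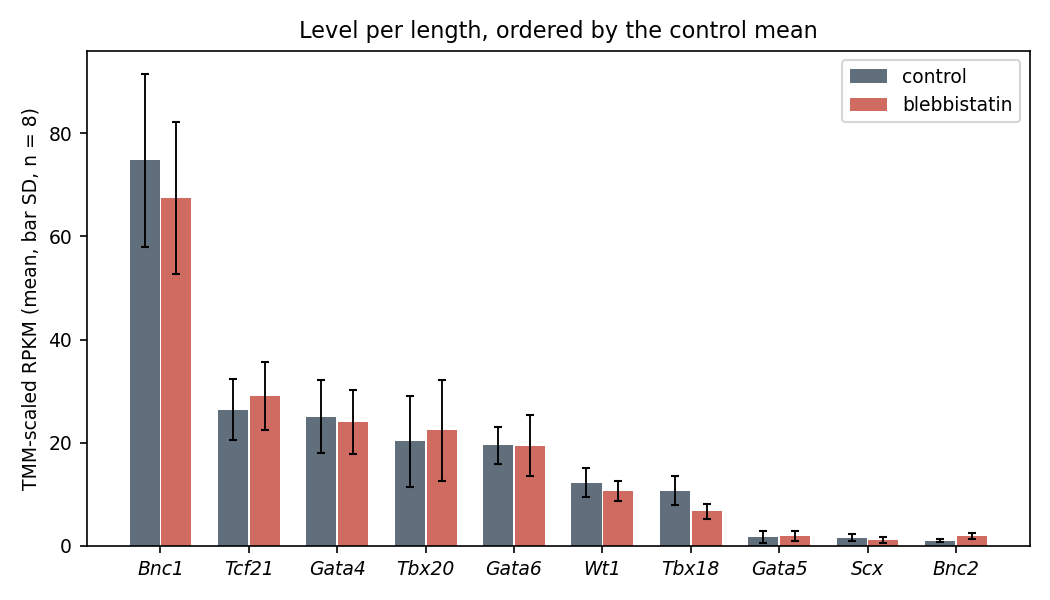
Mean level per length (y axis, TMM-scaled RPKM, bars from 0, error bars SD, n = 8 libraries) of the 10 genes, ordered by the control mean. Bnc1 stands alone at 74.7 RPKM in controls and Gata5, Scx and Bnc2 lie below 2.

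Explants of a group differed most in Gata5, Scx and Tbx20. The coefficient of variation among controls was 66.0% for Gata5, 45.5% for Scx and 44.0% for Tbx20, against a median of 31.9% over all tested genes. It was 18.8% for Gata6, 22.4% for Bnc1, 22.7% for Tcf21 and 23.2% for Wt1. Gata5 was read from 57 to 824 counts per library and Scx from 17 to 280, and Tbx20, with a spread like that of Scx, from 4412 to 14990. The part of depth in these spreads was not tested.

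Total counts ran from 20176386 to 89620195 with blebbistatin and from 27065611 to 60321622 in controls. The mitochondrial share of counts was 16.4 ± 1.70% in controls and 21.4 ± 3.21% in treated explants (SD, n = 8 each, 2-sided exact permutation test, p = 0.00326, adjusted over 3 library measures 0.00979), while total counts and genes detected did not pass. Markers of mesothelium, the tissue type of the epicardium, were present in every library: the 11 listed genes summed to 2420 to 6066 CPM in controls and 1375 to 4944 CPM with blebbistatin. The Y-linked genes Ddx3y, Eif2s3y, Kdm5d and Uty summed to 126 to 180 CPM in 7 libraries, 5 with blebbistatin and 2 controls, and to 8.79 CPM or less in the other 9. In bulk RNA, fewer cells of a type and less RNA per cell cannot be told apart.

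By edgeR's quasi-likelihood test with Benjamini-Hochberg adjustment over all 15675 genes, 0 of the 10 passed 0.05, where 0.606% of all genes did. At an unadjusted p under 0.05 there were 2, where 12.2% of all genes were: Bnc2 higher (6.21% of all genes) and Tbx18 lower (5.98%). In the adjusted test 0.255% of all genes were called higher and 0.351% lower. DESeq2 called these 2 (2.73% of the genes it adjusted) and limma voom 0 (0.721% of all genes). The groups overlapped for all 10, and 0.242% of all genes had groups that did not. The median log2 fold change of the 10, blebbistatin minus control, was −0.03, beside 0.04 over all genes, with 4 above 0 and 6 below.

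**Figure D2:**
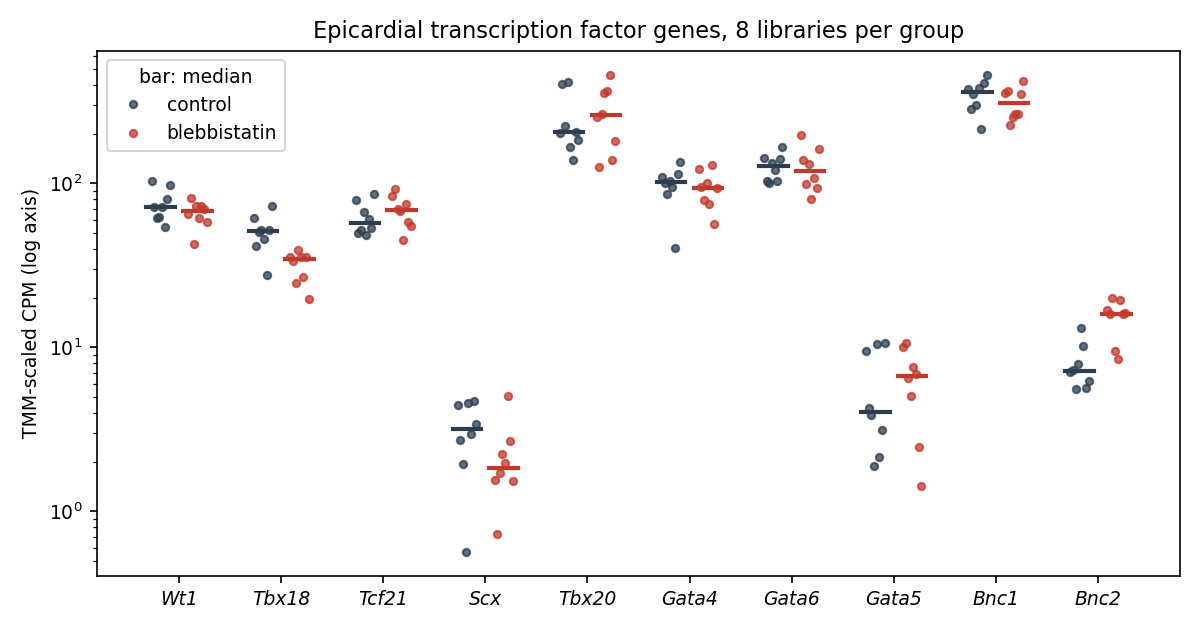
TMM-scaled CPM (y axis, log scale) of each gene in the 8 control and 8 blebbistatin libraries, a point per library and a bar at the median. The groups are offset for Tbx18 (medians 50.9 and 34.4) and Bnc2 (medians 7.18 and 16.1) and overlap for every gene.

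Tbx18 (ENSMUSG00000032419, chromosome 9, 87702800 to 87731260) was lower in explants with blebbistatin. Its level was 27.8 CPM in the lowest control, 50.9 at the median and 72.5 in the highest, and with blebbistatin 19.8, 34.4 and 39.1 (CPM scaled by TMM). All 8 treated libraries lay below the control median, and the ranges overlapped only through control 6, as the next lowest control stood at 41.3 CPM. The log2 fold change was −0.68 (SE 0.18, 95% interval −1.05 to −0.31, edgeR adjusted p = 0.0794). This did not pass.

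Of 26 alternative fits, 3 called Tbx18. They were DESeq2 (adjusted p = 0.0144), edgeR with a macrophage covariate (0.0268, where 1.65% of all genes were called) and edgeR without control 6 (0.023, log2 fold change −0.77, 1.31% of all genes). The macrophage covariate was the sum of the log2 CPM of the listed markers, and not their summed CPM. The highest adjusted p was 0.279, with a covariate for Y-linked genes. Among libraries of high Y-linked level Tbx18 stood at 28.1 CPM in 5 treated explants and 48.7 CPM in 2 controls, and among those of low level at 36.7 CPM in 3 and 50.8 CPM in 6. Its mean was lower with blebbistatin at both levels, and also lower at the high level within each group, while the high level was more frequent with blebbistatin. This split was made after the values were seen, with no test of its own. Control 6 was the library with the most macrophage and leukocyte marker RNA, 4348 CPM in sum against 296 to 2093 CPM in the other controls. Over the controls, Lyz2 made up most of this sum, with means of 988 of 1248 CPM. Tbx18 shares 970 exonic bases with D030062O11Rik on the other strand. Where the counting did not use strand, reads there may have been counted for Tbx18 or left out.

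Wt1 (ENSMUSG00000016458, chromosome 2, 105126529 to 105173616), the other marker of the sheet, ran from 54.3 CPM over a median of 72.0 to 103 in controls and from 42.7 over 67.4 to 81.6 with blebbistatin. The groups overlapped over most of their range, with 5 of 8 treated libraries below the control median. Its log2 fold change was −0.21 (95% interval −0.52 to 0.11, edgeR adjusted p = 0.632), so that a change of 2-fold either way lies outside the interval.

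Tcf21 (ENSMUSG00000045680, chromosome 10, 22817281 to 22820174), the factor of cardiac fibroblasts, ran from 48.3 CPM over 57.1 to 85.7 in controls and from 45.4 over 69.0 to 92.2 with blebbistatin. Of the treated libraries 6 of 8 lay above the control median, within the range of the controls but for the lowest and the highest. The log2 fold change was 0.14 (95% interval −0.19 to 0.47, edgeR adjusted p = 0.773).

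Scx (ENSMUSG00000034161, chromosome 15, 76457452 to 76459458) was sparse, from 0.57 CPM over 3.18 to 4.72 in controls and from 0.72 over 1.84 to 5.06 with blebbistatin. Of the treated libraries 7 of 8 were below the control median, and blebbistatin 6 was above every control. Its log2 fold change of −0.54 had a 95% interval of −1.42 to 0.33 (edgeR adjusted p = 0.654), so that a level 2-fold lower lies within the interval.

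Bnc2 (ENSMUSG00000028487, chromosome 4, 84275095 to 84675275) was higher with blebbistatin. Its level was 5.60 CPM in the lowest control, 7.18 at the median and 13.1 in the highest, and with blebbistatin 8.43, 16.1 and 19.9. None of the 8 treated explants was at or below the control median and 6 of 8 were above every control. Only blebbistatin 4 and 5, at 9.55 and 8.43 CPM, lay among the controls 5 and 6, at 13.1 and 10.3. The log2 fold change was 0.96 (SE 0.23, 95% interval 0.47 to 1.44, edgeR adjusted p = 0.0593). This did not pass.

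Of the 26 alternative fits, 7 called Bnc2. They were DESeq2 (adjusted p = 0.00545), edgeR with the macrophage covariate (0.0399) or the cardiomyocyte covariate (0.0271, where 0.689% of all genes were called), and edgeR without blebbistatin 4 (0.0475, 0.668% of all genes), blebbistatin 5 (0.0275, 1.15%), control 5 (0.037, 0.407%) or control 6 (0.0443). The summed cardiomyocyte markers themselves differed between the groups, as given below. The highest adjusted p was 0.252, with the Y-linked covariate, where the log2 fold change was 0.72. Among libraries of high Y-linked level Bnc2 stood at 17.7 CPM in 5 treated explants and 10.5 CPM in 2 controls, and among those of low level at 11.3 CPM in 3 and 7.01 CPM in 6. The mean of Bnc2 was higher with blebbistatin at both levels, and also higher at the high level within each group, while the high level was more frequent with blebbistatin. The split was made after the values were seen and carries no test of its own. For the other 8 genes 0 of the 26 fits made a call.

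Bnc1 (ENSMUSG00000025105, chromosome 7, 81966672 to 81992292) ran from 216 CPM over 363 to 461 in controls and from 227 over 308 to 419 with blebbistatin. The treated libraries lay within the control range, 6 of 8 below its median. The log2 fold change was −0.15 (95% interval −0.47 to 0.17, edgeR adjusted p = 0.750).

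The basonuclins were also compared within each library, where a ratio hardly depends on how libraries are scaled. The log2 ratio of Bnc2 to Bnc1 counts, each with a prior count of 2, was −5.48 ± 0.65 in controls and −4.38 ± 0.50 with blebbistatin (SD, n = 8 each). It ran from −6.20 to −4.39 in controls and from −4.97 to −3.51 with blebbistatin, so that the groups overlapped, with 8 of 8 treated explants higher than the median control and 3 higher than any. The difference was 1.10, or 2.14-fold (2-sided exact permutation test over 12870 splits, p = 0.00264, adjusted over 6 pairs 0.0159). With any 1 library left out, the difference ran from 0.98 to 1.25 and its adjusted p from 0.0028 to 0.0336. With the replicate numbers as pairs the call was lost (exact sign-flip test, p = 0.0156, adjusted 0.0938). This gives the test of the difference between the paralogs, but the pair was chosen with the difference of Bnc2 known, and the Y-linked level did not enter the test.

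The other 5 pairs did not pass. The log2 ratio of Tbx20 to Tbx18 was higher by 0.78 with blebbistatin (2.99 ± 0.74 against 2.21 ± 0.65, SD, n = 8 each, exact permutation p = 0.0463, adjusted 0.126), with 6 of 8 treated libraries above the control median. The ratio of Tcf21 to Wt1, of a fibroblast factor to a factor of the sheet, was higher by 0.33 (0.05 ± 0.36 against −0.28 ± 0.29, SD, n = 8 each, exact permutation p = 0.0628, adjusted 0.126), with 7 of 8 above. That of Scx to Tcf21 differed by −0.63 (−5.08 against −4.45, exact permutation p = 0.226, adjusted 0.339).

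**Figure D3:**
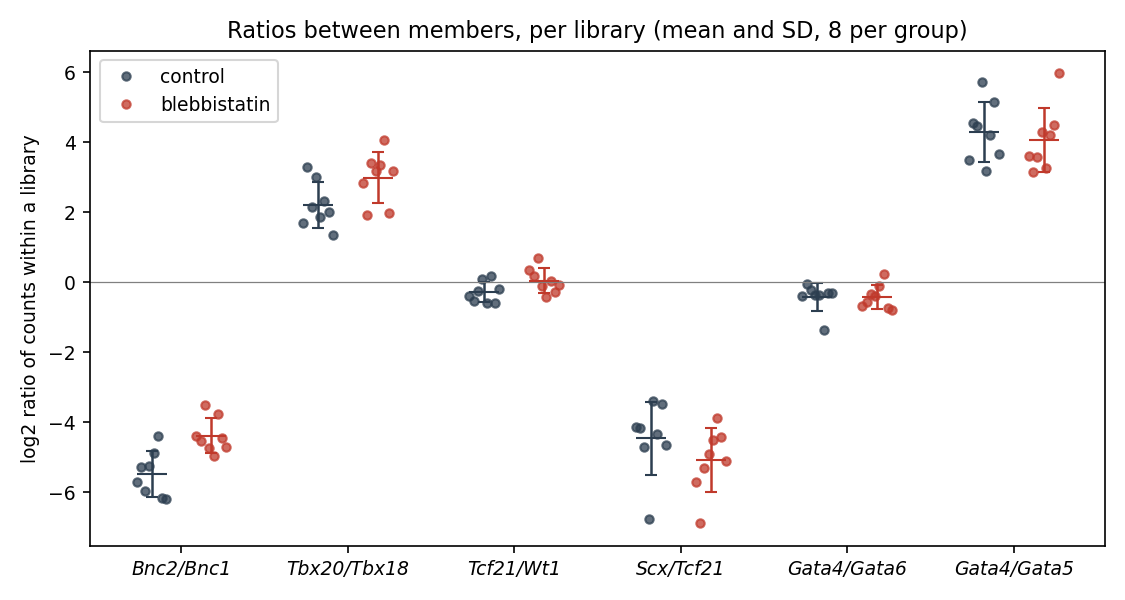
Log2 ratio of the counts of 2 genes within a library (y axis) for 6 pairs, a point per library, with mean and SD of 8 libraries per group. For Bnc2/Bnc1 the blebbistatin libraries lie higher, between −4.97 and −3.51, against −6.20 to −4.39 in controls.

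Of the 3 GATA factors 0 passed, by edgeR or under any of the 26 alternative fits. Gata4 (ENSMUSG00000021944, chromosome 14, 63198922 to 63271692) ran from 40.3 CPM over 102 to 135 in controls and from 56.4 over 94.1 to 129 with blebbistatin, a log2 fold change of −0.06 (95% interval −0.47 to 0.35, edgeR adjusted p = 0.922). Control 6 was again the lowest, with the next control at 86.6 CPM. Gata6 (ENSMUSG00000005836, chromosome 18, 11052064 to 11085635) ran from 100 CPM over 128 to 167 in controls and from 80.6 over 120 to 196 with blebbistatin (0.00, 95% interval −0.35 to 0.35, edgeR adjusted p = 0.998). The log2 ratio of Gata4 to Gata6 was −0.42 ± 0.39 in controls and −0.42 ± 0.36 with blebbistatin (exact permutation p = 1.00, adjusted 1.00).

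Gata5 (ENSMUSG00000015627, chromosome 2, 180325133 to 180334699) ran from 1.90 CPM over 4.05 to 10.6 in controls and from 1.43 over 6.71 to 10.6 with blebbistatin. Its log2 fold change of 0.14 had a wide 95% interval, −0.77 to 1.05 (edgeR adjusted p = 0.921), and controls 1, 5 and 8 stood at 9.49 to 10.6 CPM while the other 5 were at 4.24 or less. The log2 ratio of Gata4 to Gata5 differed by −0.23 between groups (4.08 against 4.30, exact permutation p = 0.612, adjusted 0.734). Gata5 shares 258 exonic bases with its antisense gene Gata5os, Bnc1 98 with the pseudogene 4833418N17Rik and Gata6 93 with 1010001N08Rik, whose reads cannot be told apart without strand.

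Tbx20 (ENSMUSG00000031965, chromosome 9, 24718138 to 24774303) varied more within a group than between groups. It ran from 138 CPM over 204 to 418 in controls and from 126 over 260 to 457 with blebbistatin, and controls 2 and 4, at 402 and 418 CPM, stood with blebbistatin 4, 5 and 6, at 357 to 457. Its log2 fold change was 0.14 (95% interval −0.43 to 0.72, edgeR adjusted p = 0.872), with 5 of 8 treated libraries above the control median.

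**Figure D4:**
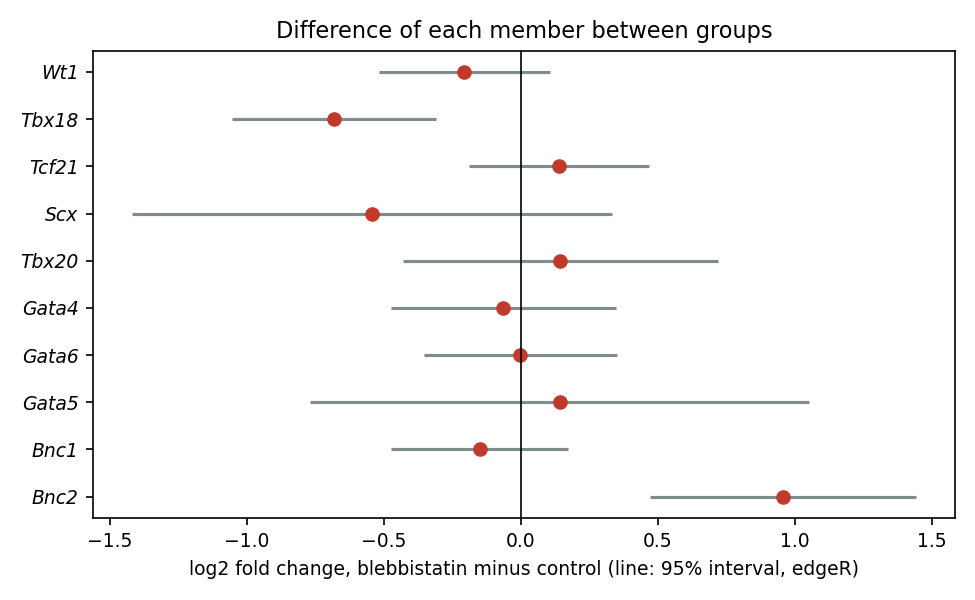
Log2 fold change of each gene, blebbistatin minus control (x axis), with its 95% interval from edgeR. Only the intervals of Tbx18 (−1.05 to −0.31) and Bnc2 (0.47 to 1.44) lie to one side of 0, and neither gene passed the adjusted threshold.

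Some libraries were low or high in several of the factors at once. Control 6 was the lowest control for 5 of the 10 genes, Wt1, Tbx18, Tbx20, Gata4 and Bnc1, and control 8 the highest for 6, Tbx18, Tcf21, Gata4, Gata5, Gata6 and Bnc1. Their macrophage and leukocyte markers stood at 4348 and 296 CPM in sum, the highest and the lowest of the controls, and their mesothelial markers at 2420 and 6066 CPM, the lowest and the highest. With blebbistatin, library 3 was the lowest for Wt1 and Bnc1 and the highest for Bnc2, and it had the most macrophage marker RNA of its group (3313 CPM). Other libraries did not follow these marker levels. Blebbistatin 5 was the lowest for 3 genes, Tcf21, Gata6 and Bnc2, at 430 CPM of macrophage markers, and blebbistatin 6, with 1602 CPM of them and the least mesothelial marker RNA (1375 CPM), was the highest for 3, Tbx20, Gata4 and Scx, and the lowest for 0. Lyz2 made up most of the macrophage sum on average (988 of 1248 CPM in controls and 714 of 1090 CPM with blebbistatin). Fits with the macrophage covariate are given beside Tbx18 and Bnc2, and the part of the mesothelial markers in these levels was not tested.

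The factors were compared with each other over the 16 libraries after the mean of each group was removed, so that the difference in group means does not enter. The treated explants remain among these libraries, and r could differ between the groups. For Tbx18 and Gata4 it was −0.12 with blebbistatin and 0.91 in controls. Control 6 was the lowest and control 8 the highest control for both genes. Over all 16 libraries their r was 0.52, and 0.17 without the 2 libraries farthest from the median of Tbx18. Of 45 pairs, 0 passed after adjustment for r or rho, with 8 at an unadjusted p under 0.05 for Pearson's r. The largest r was that of Wt1 and Tbx18, r = 0.69 (permutation p = 0.00454, adjusted 0.156) and rho = 0.69 (p = 0.00503, adjusted 0.113). Without the 2 libraries farthest from the median of Wt1, r was 0.67, and within the groups it was 0.53 with blebbistatin and 0.80 in controls.

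Gata6 and Bnc1 came next, with r = 0.63 (permutation p = 0.0114, adjusted 0.171) and rho = 0.62 (p = 0.0188, adjusted 0.141), and r = 0.65 without the 2 farthest libraries. Gata4 and Gata6 followed with r = 0.61 (permutation p = 0.00692, adjusted 0.156) and rho = 0.71 (p = 0.00344, adjusted 0.113), and r = 0.66 without the 2 farthest libraries. Tbx18 and Bnc2 are given because of their group differences, though other pairs had a larger r. They had r = −0.54 (permutation p = 0.0402, adjusted 0.226) and rho = −0.63 (p = 0.0127, adjusted 0.141), and did not pass. Within the groups r was −0.55 with blebbistatin and −0.53 in controls. These values share each library's depth, scaling and mix of cells.

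Genes whose pattern was most like that of a factor were taken from 9834 genes of at least 5 CPM, by Spearman's rho over the same 16 group-centred libraries, as a description without a test. For Wt1 they were Zswim8 (rho 0.88), Lrp10 (0.83) and Ddr1 (0.83), and for Tbx18 Cdc42bpg (0.88), Ncstn (0.86) and Smad7 (0.86), an inhibitor of TGF-beta signalling. For Bnc2 they were Pik3r1 (0.81), a subunit of PI3-kinase, Depp1 (0.80) and Lsm3 (0.79), and for Bnc1 Fbln5 (0.90), Dag1 (0.87) and F3 (0.87). For Tbx20 they were Itga4 (0.86), the integrin chain by which the epicardium attaches to the heart, P3h2 (0.84) and Glipr2 (0.84).

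Gata4 was most like Ptprs (rho 0.93), Atxn7l3b (0.83) and Atn1 (0.82), Gata6 like Pear1 (0.90), Rasl11b (0.90) and Capns1 (0.90), and Gata5 like Slirp (0.91), Armc5 (0.86) and Med16 (0.81). Tcf21 was most like Poldip3 (rho 0.85), Ccdc9 (0.81) and Ndufa3 (0.81), and Scx like Rhbdf1 (0.82), Fzr1 (0.79) and Rfx1 (0.76). None of the factors searched was among the nearest genes of another, and Scx, with a mean of 2.68 CPM, was below the minimum of the search.

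Partners and relatives of the factors were read from lists set by name, with earlier results of these data known. Over all genes, 0.606% passed edgeR, and DESeq2 called 2.73% of the genes it adjusted. The E proteins and Id proteins, which respectively pair with and sequester basic helix-loop-helix factors such as Tcf21 and Scx, counted 7 tested genes. Of these 0 passed edgeR or DESeq2 and 1 had an unadjusted p under 0.05 (12.2% of all genes). This was Id2, at 24.4 CPM in controls and 34.7 CPM in treated explants (log2 fold change 0.51, edgeR adjusted p = 0.307). For the E proteins Tcf12 and Tcf4 the log2 fold changes were −0.18 (edgeR adjusted p = 0.580) and 0.26 (0.614). The median of the list was 0.11, beside 0.04 over all genes.

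Of 14 cofactors of GATA, WT1 and T-box proteins 0 passed edgeR or DESeq2 and 2 had an unadjusted p under 0.05 (12.2% of all genes), with a median log2 fold change of −0.13. The 3 of smallest p were Cited2, which binds coactivators, at −0.48 (edgeR adjusted p = 0.282), Wtap, a partner of WT1, at −0.28 (0.387) and Zfpm1, a GATA cofactor, at −0.34 (0.422). Of 14 listed further T-box and GATA genes 6 were tested, 0 passed edgeR or DESeq2 and 2 had an unadjusted p under 0.05 (12.2% of all genes), with a median of −0.11. Gata3 was low, at 6.14 CPM in controls and 2.82 CPM in treated explants (log2 fold change −1.12, edgeR adjusted p = 0.167). Gatad1 followed at −0.25 (0.397), and Tbx3 stood under 1 CPM in both groups (edgeR adjusted p = 0.543).

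Of 28 listed further transcription factors of heart and mesenchyme 23 were tested, of which 0 passed edgeR. An unadjusted p under 0.05 was reached by 6 (12.2% of all genes), and the calls of DESeq2 were 2, both higher (2.73% of the genes it adjusted, either direction). Egr1, an immediate early gene also known in tendon, stood at 169 CPM in controls and 284 CPM in treated explants (log2 fold change 0.75, edgeR adjusted p = 0.0524). Rxra, a receptor for retinoids that acts in the epicardium, at 65.4 and 91.5 CPM (0.49, edgeR adjusted p = 0.0538), and Mef2c, a factor of muscle, at 47.3 and 70.2 CPM (0.57, edgeR adjusted p = 0.223). The median of the list was 0.21. The heart factors Nkx2-5, Isl1 and Hand1 were not analysed here.

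Genes known as targets of the factors counted 17, of which 15 were tested. By edgeR 0 passed and 4 had an unadjusted p under 0.05 (12.2% of all genes). DESeq2 called 1 higher and 2 lower (2.73% of the genes it adjusted, either direction), and the median log2 fold change was −0.27. Pdgfra, a growth factor receptor of fibroblasts, stood at 125 CPM in controls and 221 CPM in treated explants (log2 fold change 0.82, edgeR adjusted p = 0.0555). Spry1, an inhibitor of receptor tyrosine kinases and a WT1 target, stood at 40.4 and 22.6 CPM (−0.84, edgeR adjusted p = 0.0593). Nppb, for a natriuretic peptide and a target of Gata4, stood at 1.89 and 0.24 CPM (−2.94, edgeR adjusted p = 0.157).

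Markers of the cell types an explant could hold moved with the groups in part. Their lists, too, were chosen with earlier results of these data known, so the tests of their sums are not independent of those results. Of 11 mesothelial markers, 0 passed edgeR and 6 had an unadjusted p under 0.05, all 11 had a log2 fold change below 0, and the median was −0.78, led by Krt19 (−1.33, edgeR adjusted p = 0.0593), Krt18 (−1.41, adjusted p = 0.157) and Msln (−0.78, adjusted p = 0.220). DESeq2 called 2 lower. Over all genes, 12.2% had an unadjusted edgeR p under 0.05, and DESeq2 called 2.73% of those it adjusted, either direction. In sum they stood at 4334 ± 1298 CPM in controls and 3142 ± 1248 CPM in treated explants (SD, n = 8 each, exact permutation p = 0.083, adjusted over 7 lists 0.145). Tbx18 and Wt1 are factors of this tissue, and the part of its markers in the difference of Tbx18 was not tested.

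Of 8 tested markers of mural cells 2 fell, Acta2 (log2 fold change −1.22, edgeR adjusted p = 0.00411) and Tagln (−1.72, adjusted p = 0.0112), genes of smooth muscle contraction that epicardial cells also use. Next came Cnn1, at 5.10 and 1.64 CPM (−1.64, edgeR adjusted p = 0.446). Over all genes, edgeR called 0.351% lower. In this list 2 had an unadjusted p under 0.05 (12.2% of all genes). DESeq2 called 2 lower (2.73% of the genes it adjusted, either direction). Of the 8 log2 fold changes 6 were below 0 and 2 above, those of Pdgfrb (0.07, edgeR adjusted p = 0.916) and Abcc9 (0.70, 0.606). The sum was 1496 ± 267 CPM in controls, from 1139 to 1954, and 667 ± 193 CPM in treated explants, from 453 to 1008 (SD, n = 8 each, exact permutation p = 0.000155, adjusted 0.00109), with no overlap. Acta2 (1030 and 445 CPM of the library total) and Tagln (306 and 92.3 CPM) made up most of it and of its difference. Rgs5 and Kcnj8, which define pericytes, were not analysed here, and Myh11 stood at 0.14 to 5.36 CPM over all libraries. Of 9 fibroblast markers 0 passed edgeR and 6 had an unadjusted p under 0.05 (12.2% of all genes), 2 higher and 4 lower. Those of smallest p were Pdgfra (above), Lum (0.80, edgeR adjusted p = 0.237) and Vim (−0.28, 0.289). The list summed to 7580 ± 910 CPM in controls and 6376 ± 1405 CPM in treated explants (SD, n = 8 each, exact permutation p = 0.0589, adjusted 0.137).

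Of the cardiomyocyte markers 4 of 10 were tested, of which Ttn, for the sarcomere protein titin, rose from 15.5 to 48.2 CPM (log2 fold change 1.64, edgeR adjusted p = 0.0464) and Tnnt2, for cardiac troponin T, stood at 540 and 853 CPM (0.66, adjusted p = 0.124). Ttn alone was called by edgeR, where 0.255% of all genes were called higher. An unadjusted p under 0.05 was reached by 3, all higher (12.2% of all genes, either direction). DESeq2 called 3 higher (2.73% of the genes it adjusted, either direction). Ryr2, the calcium release channel, stood at 1.24 and 5.42 CPM (2.12, edgeR adjusted p = 0.124). Myl7, an atrial myosin light chain, stood at 93.4 and 77.9 CPM (−0.26, edgeR adjusted p = 0.748). The sum over the 6 genes in the table was 661 ± 237 CPM in controls, from 410 to 1022, and 994 ± 169 CPM in treated explants, from 651 to 1214 (SD, n = 8 each, exact permutation p = 0.00901, adjusted 0.0315). Most of the sum and of its difference was Tnnt2, at 549 and 859 CPM of the library total. The call ended without any of 11 libraries in turn (adjusted p up to 0.0625): blebbistatin 3 to 8 and control 1, 3, 4, 7 or 8. The defining sarcomere genes Myh6 and Actc1 stood at 0.00 to 8.37 CPM. Gata4, Gata6 and Tbx20 are also factors of heart muscle. The cardiomyocyte covariate was the sum of the log2 CPM of the 6 genes, and not the sum of CPM above. Ttn, Tnnt2 and Ryr2 among them were higher with blebbistatin, so the covariate is not independent of the groups. With this covariate, Tbx20 had a log2 fold change of −0.04, Gata6 of 0.07 and Bnc2 of 1.09.

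The macrophage and leukocyte markers did not differ between groups beyond their spread (1248 ± 1375 CPM in controls and 1090 ± 1019 CPM in treated explants, SD, n = 8 each, exact permutation p = 0.785, adjusted 0.785), but varied among explants from 245 to 4348 CPM. Of 7 tested, 0 passed edgeR or had an unadjusted p under 0.05 (12.2% of all genes), the smallest p being those of Cd68 (0.70, edgeR adjusted p = 0.576), Csf1r (0.47, 0.774) and Ptprc (0.49, 0.782). Of the 7 log2 fold changes 6 were above 0 and 1 below, that of Lyz2 (−0.42, edgeR adjusted p = 0.815). Lyz2 made up most of the sum, with means of 988 CPM of the library total in controls and 714 CPM in treated explants. With the sum of the markers' log2 CPM (not of their CPM) as a covariate, the standard error of Tbx18 was 0.15 in place of 0.18, at a log2 fold change of −0.67. Of 8 listed endothelial markers 5 were tested, of which 0 passed edgeR or had an unadjusted p under 0.05 (12.2% of all genes). The 3 below 0 were Kdr (−1.19, edgeR adjusted p = 0.417), Tek (−0.32, 0.585) and Flt1 (−0.29, 0.773), those of smallest p. The 2 above 0 were Egfl7 (0.79, edgeR adjusted p = 0.792) and Pecam1 (0.12, 0.947). These 5 markers summed to 97.9 ± 34.8 CPM in controls and 79.6 ± 32.5 CPM in treated explants (SD, n = 8 each, exact permutation p = 0.295, adjusted 0.413), with Pecam1 at 0.48 to 5.79 CPM. Of 6 erythroid genes Alas2 alone was tested, at 2.72 CPM in controls and 3.28 CPM in treated explants.

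**Figure D5:**
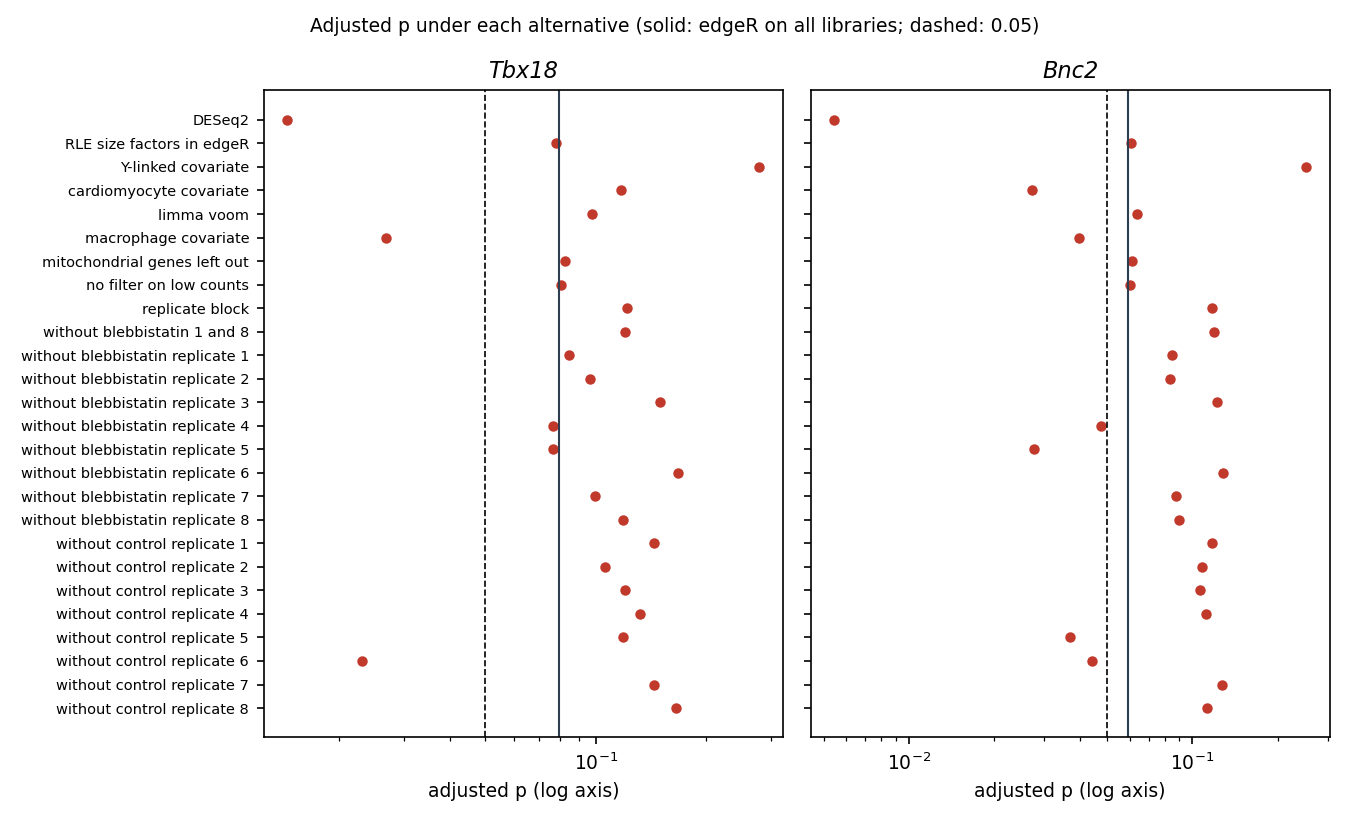
Adjusted p (x axis, log scale) of Tbx18 and Bnc2 under 26 alternative fits, a point each, with the edgeR value on all libraries as a solid line (0.0794 and 0.0593) and 0.05 as a dashed line. Tbx18 passes under 3 of the 26 and Bnc2 under 7.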

How the data were processed

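The data deposited by the authors are raw read counts per gene for 16 explants, with no normalization. Kits named in the labels' protocols were an Ovation amplification kit and a Nextera XT library kit. The submitters' processing notes list HTSeq 0.6.1p1, SAMtools 1.3, Bowtie2 2.2.6.0, TopHat2 2.1.0 and edgeR, with build mm10 (GRCm38). Strand setting and annotation are not stated there. Symbols were set from Ensembl identifiers, of which 15665 of 15805 matched. Positions and exonic lengths are those of GENCODE M21 on GRCm38, and promoters those of RefSeq.

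Counts were filtered with filterByExpr, scaled by TMM and tested with edgeR 4.0.16 (R 4.3.3, robust quasi-likelihood fit, group as the only term, Benjamini-Hochberg adjustment over 15675 genes, threshold 0.05). A prior count of 2 was used for log2 CPM and for ratios, and group differences in ratios and marker sums were tested by exact permutation. Correlations between factors used 100000 permutations within groups. Marker lists were summed as CPM of the library total. Alternatives used DESeq2 1.42.0, limma 3.58.1 (voom), RLE scaling, no filter, a table without mitochondrial genes, covariates (log2 CPM summed over Y-linked, macrophage or cardiomyocyte genes), a replicate block and leaving out each library. The fit was tested on simulated data. All 10 factors are named, and in each other list the genes called and the 3 of smallest p. Further marker genes (Myh6, Actc1, Myh11, Pecam1, Egfl7, Lyz2, Myl7, Pdgfrb, Abcc9) were chosen after their values were seen. The 10 genes, the lists and the pairs were chosen with earlier results of these data known. No 2 libraries of a group agreed within sampling noise.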

Additional observations from a re-analysis of the deposited data

Results flagged for a closer look

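Among 20 sets of 8 values (10 genes in 2 groups), 1 library stood apart from the rest of its group. Scx reached 5.06 CPM in blebbistatin 6, with the next treated library at 2.68 CPM, a gap of 0.549 of the range of the group, past the 95% limit of the Dixon test. Chance marks about 1 in 20 such sets. Without blebbistatin 6 the log2 fold change of Scx was −0.84 (edgeR adjusted p = 0.499).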

How the results depend on the processing

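The number of all genes called was 95 in edgeR, and it was 407 with DESeq2, 177 with the replicate block, 21 with the Y-linked covariate, 259 with the macrophage covariate and 44 to 206 as each library was left out. Of the 10 factors 0 were called in edgeR, 2 with DESeq2, 2 with the macrophage covariate, 1 with the cardiomyocyte covariate and 0 to 2 as each library was left out. The log2 fold changes of Wt1, Tbx18, Tcf21, Bnc1, Bnc2 and Scx kept their sign under all 26 alternatives. That of Gata6, −0.0021, was 0.0022 without mitochondrial genes, 0.073 with the cardiomyocyte covariate and −0.12 to 0.071 as each library was left out. That of Tbx20 was −0.039 with the cardiomyocyte covariate and −0.0086 to 0.29 with a library left out, that of Gata5 was −0.00038 with the Y-linked covariate and −0.012 to 0.33 with a library left out, and that of Gata4 ran from −0.18 to 0.018. The ratio of Gata4 to Gata6 differed by −0.13 to 0.055 as each library was left out and by 0.11 without blebbistatin 1 and 8, a setting added after seeing the data. The cardiomyocyte sum differed by 297 to 384 CPM and the macrophage sum by −476 to 285 CPM as each library was left out. The cause of these changes was not tested.

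The replicate numbers did not meet the criterion for pairing, a correlation of deviations above 0.1 in every pair: same-numbered pairs ran from 0.0039 to 0.279, 4 of 8 above 0.1, and 5 of 16 libraries correlated best with their own number. With the replicate block the adjusted p of Tbx18 was 0.122 and of Bnc2 0.117, and the paired difference of the Bnc2 to Bnc1 ratio was 1.10 (exact sign-flip test, p = 0.0156, adjusted 0.0938). Scx had as few as 17 counts in a library, and what depth adds to its spread was not tested.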
